A study of Mus musculus with 2 samples.

Results

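Amino acid transporters are membrane proteins that carry amino acids into cells, out of them, or in exchange for one another. Described here are 8 of their genes, Slc7a5, Slc3a2, Slc1a5, Slc38a1, Slc38a2, Slc7a1, Slc7a6 and Slc7a11, out of 55536 annotated genes. They were taken from a written list of symbols and matched by gene identifier, and all 8 were found. Levels were measured by polyA plus RNA-seq in regulatory T cells of the mouse, in 2 libraries that the labels give as technical replicates of a single biological sample. The donor was 1 adult male mouse aged 4 months, of a strain that crosses Foxp3CreERT2, a tamoxifen-inducible Cre recombinase driven from the Foxp3 locus, with a Rosa26YFP reporter. The labels name no tamoxifen treatment, no sort and no gate, and give the cells' origin as bone marrow haematopoietic. There is 1 group and no condition to compare, so the results below are levels, transcript shares and the difference between the libraries. The SD of 2 such libraries is technical and holds nothing of the spread between animals.

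The genes fall into 4 kinds by the way their proteins work. Slc3a2 encodes the heavy chain of CD98, which brings a light chain to the plasma membrane and transports nothing by itself, and Slc7a5 (LAT1), Slc7a6 (y+LAT2) and Slc7a11 (xCT) encode light chains that pair with it. Slc1a5 (ASCT2) is a sodium-dependent exchanger of neutral amino acids including glutamine, Slc38a1 and Slc38a2 are sodium-coupled importers of small neutral amino acids and glutamine, and Slc7a1 (CAT1) carries arginine, lysine and ornithine without a heavy chain. T cells raise amino acid uptake when they are stimulated, and leucine and arginine inside the cell are read by sensors that set the activity of the kinase complex mTORC1. Cystine brought in by xCT is reduced to cysteine, a building block of glutathione.

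Library 1 held 15821875 estimated counts on annotated genes and library 2 held 16153671. A count of 0 in them allows up to 3 counts, which is 0.190 CPM (counts per 1000000) in library 1 and 0.186 CPM in library 2. All 10 T cell markers were expressed, Foxp3 at 39.7 ± 4.91 TPM (transcripts per 1000000, a length-scaled level, mean ± SD, n = 2). Of the markers of other cells, 1 of 6 B cell genes (Cd79b, 33.2 TPM), 1 of 8 myeloid genes (Cd68, 2.98 TPM), 1 of 6 red cell genes (Hbb-bs, a globin gene with near-identical copies, 7.33 TPM) and 0 of 6 stroma and endothelium genes reached 1 TPM in both libraries. Summed TPM of the B cell list was 35.4 in library 1 and 35.3 in library 2, that of the myeloid list 4.98 and 3.53, that of the red cell list 10.5 and 6.78 and that of the stroma list 0.36 and 0.17. Of these lists, Ly6g, Mpo, Elane, Epor, Slc4a1 and Pdgfrb were at 0 in both libraries. Other genes of the same lists had counts, among them Itgam (21 and 20) and Alas2 (14.1 and 11.6). In the smaller deposited set of counts Ly6g and Epor had 1 count each in library 1. In the comparison of the libraries Ms4a1 of the B cell list (30 and 3 counts) and Csf1r of the myeloid list (44.2 and 11.8 counts) were called with over 1.5-fold more in library 1. What these cells add to the transporter levels was not tested, and in a bulk sample fewer cells of a type and less RNA per cell cannot be told apart.

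A gene was called expressed when both libraries gave it 1 TPM or more, which 7 of the 8 did, and 6 of them had 5 TPM or more in both. Over all annotated genes 24.3% reached 1 TPM in both libraries, and over protein-coding genes 46.5% did. The median level of the 8 was 29.7 TPM, beside 0.625 TPM over all protein-coding genes. Slc1a5 was highest, Slc7a5 was the lowest of the 7 expressed genes, and Slc7a11 was close to the detection limit.

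**Figure D1:**
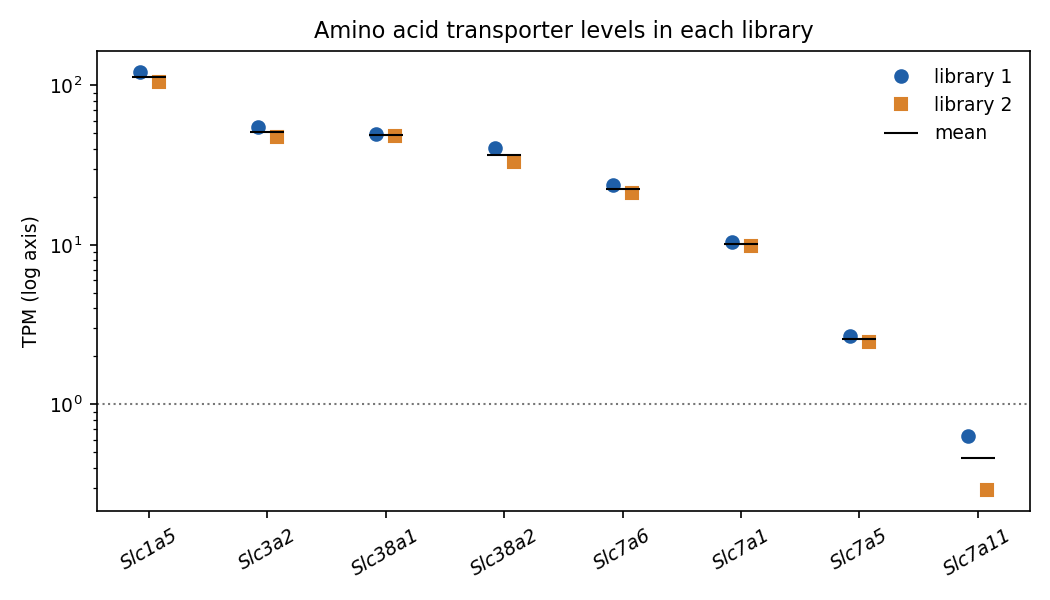
TPM of the 8 transporter genes on a log axis, with a circle for library 1, a square for library 2, a bar for their mean and a dotted line at 1 TPM. The levels run from 114 TPM for Slc1a5 to 0.46 TPM for Slc7a11, and only Slc3a2 and Slc38a1 overlap as neighbours in the order.

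Slc3a2, the shared heavy chain (ENSMUSG00000010095.13, mm10 chromosome 19, 8706882 to 8723369, minus strand), was at 55.2 TPM in library 1 and 47.4 TPM in library 2, a mean of 51.3 ± 5.54 TPM (SD, n = 2). Its level rested on 1066 and 914 estimated counts. The deposited credibility intervals, which belong to the posterior mean TPM, ran from 48.3 to 59.1 in library 1 and from 41.3 to 51.1 in library 2. The gene stood above 76.3% of the expressed protein-coding genes. Slc3a1, the heavy chain of the kidney and gut transporters of cystine and dibasic amino acids, was at 0.89 and 0.7 TPM, so that Slc3a2 was 64.8 ± 3.99 times its level.

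Slc7a5, the light chain that imports leucine and other large neutral amino acids (ENSMUSG00000040010.10, chromosome 8, 121881150 to 121907694, minus strand), was at 2.69 TPM in library 1 and 2.45 TPM in library 2. The mean was 2.57 ± 0.170 TPM (SD, n = 2), from 116 and 111 estimated counts. It stood above 8.38% of the expressed protein-coding genes. The level of its partner chain Slc3a2 was 19.9 ± 0.839 times as high, per length, and the libraries gave 20.5 and 19.3. LAT1 mRNA was thus scarce beside that of the heavy chain in both libraries.

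Slc7a6, the light chain that exchanges cationic for neutral amino acids (ENSMUSG00000031904.5, chromosome 8, 106168857 to 106198706, plus strand), was at 23.8 and 21.3 TPM, a mean of 22.5 ± 1.74 TPM (SD, n = 2). It had 717 and 716 estimated counts. Its level was 8.76 ± 0.0984 times that of Slc7a5, and the ranges of the libraries did not overlap. Slc7a11, the cystine and glutamate exchanger (ENSMUSG00000027737.10, chromosome 3, 49892526 to 50443614, minus strand), was at 0.63 and 0.29 TPM, from 5.09 and 6.05 estimated counts. These are 0.322 CPM in library 1 (95% exact Clopper-Pearson interval of the rounded count 0.103 to 0.737) and 0.375 CPM in library 2 (0.136 to 0.808). The intervals cover counting error only, since reads without molecular identifiers are not independent molecules, and reach below the level that a count of 0 allows. The smaller deposited count table gave Slc7a11 0 counts in both libraries. The gene was the only one of the 8 under 1 TPM.

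Light chains share the heavy chain, so their summed level was set beside it. Slc3a2 had 1.67 times the summed TPM of 6 light chains (Slc7a5, Slc7a6, Slc7a7, Slc7a8, Slc7a10 and Slc7a11) in library 1 and 1.56 times in library 2, a mean of 1.61 ± 0.0803. Of the light chain TPM, Slc7a6 held 71.0 ± 1.34%, Slc7a10 (Asc-1, a carrier of small neutral amino acids) 16.7 ± 1.98% and Slc7a5 8.10 ± 0.0619%. Slc7a7, Slc7a11 and Slc7a8 held 2.49%, 1.43% and 0.336%. The ratio depends on which transcripts are counted: over protein-coding transcripts alone it was 2.16. Without Slc7a10, left out after its values were seen, it was 1.94. Of the 50-base windows of Slc7a10, 12.9% also occur on the opposite strand in transcripts of Lrp3, whose reads may be counted to it, and 5.25% of those of Slc7a7 occur in Oxa1l.

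Slc1a5, the neutral amino acid exchanger (ENSMUSG00000001918.17, chromosome 7, 16781340 to 16798274, plus strand), was at 122 TPM in library 1 and 105 TPM in library 2, a mean of 114 ± 11.8 TPM (SD, n = 2). It had 3647 and 3213 estimated counts and stood above 89.7% of the expressed protein-coding genes. This was 2.22 times the level of the next gene in the order, Slc3a2, with no overlap between the libraries. Over protein-coding transcripts alone the order turned, with Slc1a5 at a mean of 37.3 TPM and Slc3a2 at 44.2 TPM. In library 2 these levels were close, at 39.6 and 40.8 TPM. The whole-gene level of Slc1a5 was 44.2 ± 1.65 times the level of Slc7a5, the importer whose exchange of glutamine for leucine ASCT2 is known to feed.

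Slc38a1 and Slc38a2 (SNAT1 and SNAT2) lie on the minus strand of chromosome 15. Slc38a1 (ENSMUSG00000023169.15, 96571418 to 96642913) was at 49.96 and 48.35 TPM, a mean of 49.2 ± 1.14 TPM (SD, n = 2), from 2237.8 and 2493.9 estimated counts. Slc38a2 (ENSMUSG00000022462.7, 96687392 to 96699730) was at 40.5 and 33.3 TPM, a mean of 36.9 ± 5.12 TPM, from 2423 and 2090 counts. Slc38a1 was 1.23 times Slc38a2 in library 1 and 1.45 times in library 2, and the libraries of one did not overlap those of the other. Per length and over protein-coding transcripts alone the order was not stable: Slc38a1 had 27.8 and 31.5 TPM and Slc38a2 34.9 and 28.5 TPM.

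Slc7a1, the cationic amino acid carrier (ENSMUSG00000041313.14, chromosome 5, 148327410 to 148399904, minus strand), was at 10.4 and 9.83 TPM, a mean of 10.1 ± 0.396 TPM (SD, n = 2). It had 524 and 506 estimated counts. Both libraries placed it under Slc7a6 and over Slc7a5. Of the expressed protein-coding genes, 33.8% had a lower level.

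In the order Slc1a5, Slc3a2, Slc38a1, Slc38a2, Slc7a6, Slc7a1, Slc7a5 and Slc7a11, the only neighbours whose libraries overlapped were Slc3a2 and Slc38a1, 1.04-fold apart. Their credibility intervals overlapped as well. The steps between the other neighbours ran from 1.33-fold, between Slc38a1 and Slc38a2, to 5.59-fold, between Slc7a5 and Slc7a11. The order is that of mRNA levels per length in this sample and says nothing of protein or transport.

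A further 50 genes of amino acid transporter families, in 7 lists, give the setting of the 8. Of these 50, 17 were expressed, 8 reached 5 TPM in both libraries and 13 had 0 counts in both, with a median of 0.15 TPM. Summed over all 58 genes, the TPM was 476.8 in library 1 and 423.8 in library 2, of which the 8 held 305.2 and 268.3, or 63.7 ± 0.495%. Slc1a5 alone held 25.2 ± 0.508%. None of the 50 stood above Slc1a5, Slc3a2, Slc38a1 or Slc38a2 by mean TPM, while 3 stood above Slc7a6, 4 above Slc7a1, 13 above Slc7a5 and 21 above Slc7a11.

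**Figure D2:**
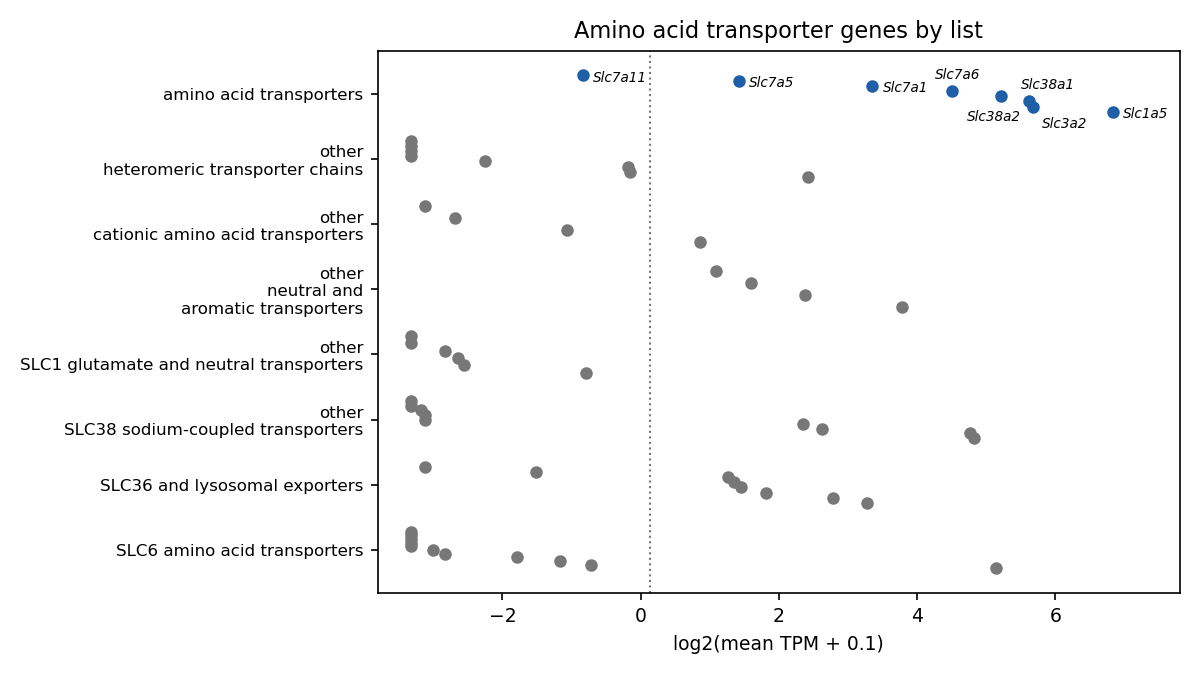
Mean level of each amino acid transporter gene as log2(mean TPM + 0.1), one row per list, with the 8 genes in blue and the other 50 in grey. The dotted line stands at 1 TPM, and 7 of the 8 lie to its right beside 17 of the 50.

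The nearest gene in level was found for each of the 8 as the smallest mean absolute difference in log2(TPM + 0.1) over both libraries, among the 58. Slc38a2 lay nearest to Slc6a6, the taurine transporter gene, at 36.8 and 33.5 TPM, a difference of 0.07. Slc7a6 lay nearest to Slc38a9, whose lysosomal protein senses arginine, at 30.4 and 23.9 TPM, a difference of 0.26. Slc38a10 (30.3 and 25.9 TPM) was the second nearest to both. Slc7a1 lay nearest to Ctns, the lysosomal cystine exporter gene, at 9.54 and 9.60 TPM, a difference of 0.08, with Slc43a2 (14.5 and 12.9 TPM) next. Slc7a5 lay nearest to Slc36a1, a proton-coupled transporter gene, at 2.50 and 2.12 TPM, a difference of 0.15, followed by Slc43a1 (3.04 and 2.79 TPM). Slc7a11 lay nearest to Slc7a3 (0.44 and 0.32 TPM) and then Slc6a20b (0.44 and 0.25 TPM). Slc3a2 and Slc38a1 were nearest to each other, at 0.09, and Slc1a5 had no gene closer than Slc3a2, at 1.15. This is likeness of level in 2 libraries of 1 sample.

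Among other carriers of the amino acids that the 8 move, several stood above Slc7a5 and many were not expressed. Of 4 genes listed as further monomeric carriers of large neutral and aromatic amino acids all 4 were expressed, although Slc43a3 is known to carry purine nucleobases and is counted here and among the 50 by family only. Slc43a2 (LAT4) led at 13.7 ± 1.15 TPM, 5.32 ± 0.0973 times the level of Slc7a5, ahead of Slc43a3 at 5.09 TPM, Slc43a1 (LAT3) at 2.92 TPM and Slc16a10 (TAT1) at 2.03 TPM. Among 8 other heteromeric chains only Slc7a10 was expressed, at 5.28 ± 0.318 TPM or 2.06 times Slc7a5, and Slc7a9, Slc7a12, Slc7a13 and Slc7a15 had 0 counts. Of 4 other cationic carriers 1 was expressed, Slc7a4 at 1.71 TPM; Slc7a2, the CAT2 gene of macrophages and liver, had 0 and 11 counts. None of 6 other SLC1 genes was expressed, and Slc1a4 (ASCT1), another exchanger of neutral amino acids, had 2 and 5 counts.

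Among 9 other SLC38 genes 4 were expressed, Slc38a10 at 28.1 ± 3.10 TPM, Slc38a9 at 27.2 ± 4.596 TPM, Slc38a6 at 6.04 TPM and Slc38a7 at 5.02 TPM. Of 8 SLC36 and lysosomal genes 6 were expressed, led by Ctns at 9.57 TPM, Pqlc2 (a lysosomal exporter of cationic amino acids) at 6.76 TPM and Slc36a4 at 3.43 TPM. Slc6a6 was the only one of 11 SLC6 genes expressed, at 35.2 ± 2.33 TPM, and the next, Slc6a9 (a glycine transporter), was at 0.51 TPM. The highest genes outside the 8 were thus a taurine transporter and 2 SLC38 members.

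The transcript tables split each gene's level among its annotated transcripts. They have 47 annotated transcripts, of which 23 held 10% or more of the gene's TPM or counts in either library. The same transcript led by share of TPM in both libraries for all 8 genes, though some leads were narrow. For Slc1a5 in library 2 the credibility intervals overlapped, at 33.6 to 46.4 TPM for Slc1a5-202 and 29.8 to 42.9 for Slc1a5-201. In library 1 they did not. For Slc7a1 in library 1 they were 3.44 to 4.88 for Slc7a1-204 and 3.32 to 4.09 for Slc7a1-201. The leading Slc7a11-203 had 0.98 counts in library 2. A protein-coding transcript led in 5 of them, and the exceptions were Slc1a5, Slc7a1 and Slc7a11. Over the 9458 expressed protein-coding genes with more than 1 transcript, the leading transcript was not annotated as protein coding in 1571 (16.6%). All of these shares are model estimates from short reads.

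**Figure D3:**
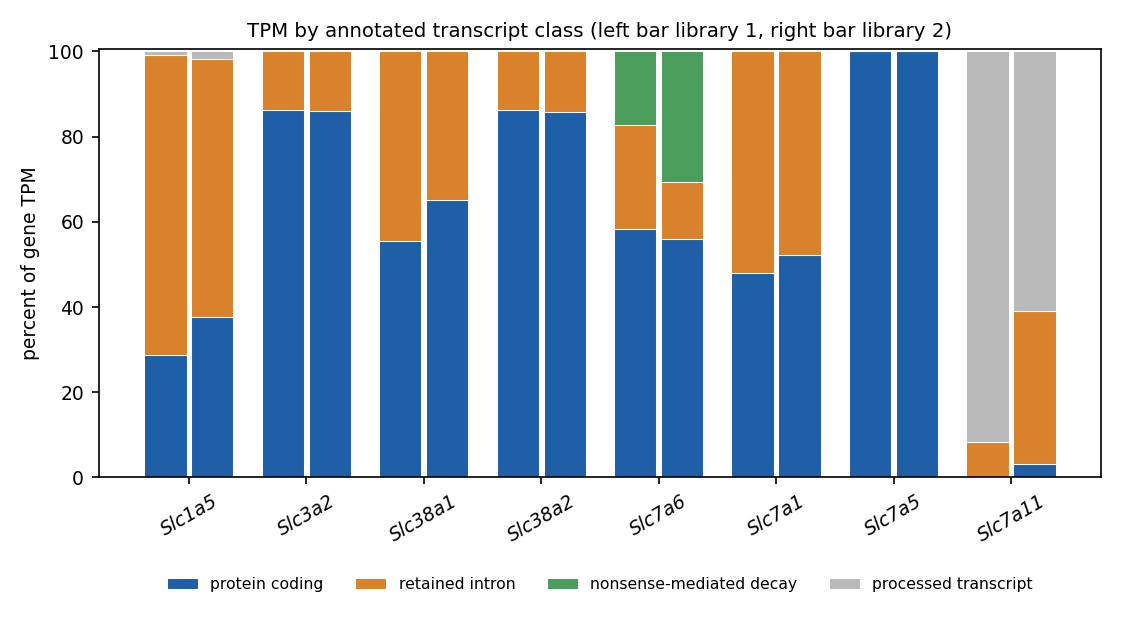
Percent of each gene's TPM on its protein-coding, retained-intron, nonsense-mediated decay and processed transcripts, with the left bar for library 1 and the right bar for library 2. Slc1a5 has 70.6% and 60.8% on retained-intron transcripts, while Slc7a5 has 100% on its protein-coding transcript in both.

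Slc1a5-202, annotated as a retained-intron transcript, was given 55.1% of the Slc1a5 TPM in library 1 and 43.6% in library 2, or 2308.6 and 1654.1 counts. The protein-coding Slc1a5-201 was given 28.7% and 37.6%, or 1181 and 1402 counts. The transcripts start at different bases, 16781340 for Slc1a5-201 and 16781368 for Slc1a5-202. They also differ at an intron of 71 bases, chr7:16795953-16796023 on the plus strand of mm10, inside the coding sequence. The stretch with the intron is printed because the leading models of the most abundant of the 8 genes differ there. It is taken from the GENCODE M21 transcripts, over chr7:16795923-16796053 in both lines. The intron is in capitals in the first line, and the bases on either side of the splice junction are in capitals in the second.
Slc1a5-202: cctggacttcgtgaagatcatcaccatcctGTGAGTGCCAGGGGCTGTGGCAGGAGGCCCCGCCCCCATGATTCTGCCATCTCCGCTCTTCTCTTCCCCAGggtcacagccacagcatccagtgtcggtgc
Slc1a5-201: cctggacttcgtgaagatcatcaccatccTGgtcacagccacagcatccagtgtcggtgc
Few windows belong to either transcript alone. Of the 50-base windows of Slc1a5-202, 119 of 2758 occur in no other Slc1a5 transcript, and of those of Slc1a5-201, 28 of 2715. Windows that separate these transcripts from each other but occur in a further Slc1a5 transcript were not counted.

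Over all retained-intron transcripts, Slc1a5 had 65.7 ± 6.94% of its TPM (SD, n = 2), more than 95.3% of the 6332 expressed protein-coding genes that have such a transcript, whose median was 14.6%. Counting protein-coding transcripts alone left Slc1a5 at 35.0 TPM in library 1 and 39.6 TPM in library 2. In that count it was higher in library 2, whereas its whole-gene TPM was higher in library 1. By mean, Slc3a2 then led the 8 at 44.2 TPM, ahead of Slc1a5 at 37.3, Slc38a2 at 31.7, Slc38a1 at 29.6, Slc7a6 at 12.9, Slc7a1 at 5.06, Slc7a5 at 2.57 and Slc7a11 at 0.005 TPM. Slc3a2 was well ahead of Slc1a5 in library 1, at 47.6 TPM, but close to it in library 2, at 40.8 TPM. The top place of Slc1a5 thus depended on its retained-intron transcripts being counted.

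Slc7a6 was split among protein-coding, retained-intron and decay transcripts. The protein-coding Slc7a6-201 held 32.3% and 33.0% of its TPM, and Slc7a6-205, a short protein-coding model of 616 bases, 25.9% and 22.9%. Slc7a6-203, annotated as a target of nonsense-mediated decay, was given 17.4% in library 1 and 30.6% in library 2, from 134 and 223 counts. The retained-intron Slc7a6-207 went the other way, with 19.6% and 13.4% from 182 and 118 counts. The decay form lacks a stretch of 199 bases of coding sequence, chr8:106179288-106179486 on the plus strand, which Slc7a6-201 keeps within an exon. That stretch is shown in capitals in the first line, and the bases that the decay form joins are in capitals in the second, both over chr8:106179258-106179516 of mm10.
Slc7a6-201: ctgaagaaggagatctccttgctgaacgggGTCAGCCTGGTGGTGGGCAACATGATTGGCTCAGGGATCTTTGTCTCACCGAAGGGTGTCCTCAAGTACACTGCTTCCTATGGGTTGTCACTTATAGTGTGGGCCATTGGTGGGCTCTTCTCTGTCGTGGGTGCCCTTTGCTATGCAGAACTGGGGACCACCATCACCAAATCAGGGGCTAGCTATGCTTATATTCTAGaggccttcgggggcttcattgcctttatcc
Slc7a6-203: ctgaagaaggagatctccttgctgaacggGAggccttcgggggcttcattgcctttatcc
Only 48 of the 2623 windows of Slc7a6-203 occur in no other Slc7a6 transcript. Nonsense-mediated decay is the pathway that degrades mRNAs with a premature stop.

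Slc7a1 had its reads on separable models. Slc7a1-204, a retained-intron model of a single exon (chromosome 5, 148391417 to 148393648, minus strand), was given 44.7% and 42.9% of the TPM from 126 and 120 counts, and 99.5% of its windows are its own. The protein-coding Slc7a1-201 was given 40.4% and 39.7% of the TPM but 372 and 363 counts, so by counts, which are not divided by length, it led in both libraries. The single exon contains the whole window of 250 bases before the second RefSeq start of Slc7a1 (148392816 to 148393065). The retained-intron share of Slc7a1 was 49.9 ± 3.11%, above 89.2% of the genes that have such a transcript.

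Slc38a1 had 39.6 ± 6.79% of its TPM on retained-intron transcripts, above 82.5% of those genes. The largest was Slc38a1-204, a single exon of 3722 bases with 20.5% and 18.9%, followed by Slc38a1-205 with 19.1% and 12.4%. Its protein-coding Slc38a1-203 and Slc38a1-201 held 21.5% and 25.1%, and 20.5% and 20.4%, and Slc38a1-207 13.6% and 14.0%. By counts Slc38a1-201, the full-length model of 7266 bases, led with 921 and 928. No model held more than 25.1% of the TPM of this gene in either library.

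The remaining expressed genes were simpler. Slc38a2-201, protein coding, held 86.2% and 85.7% of its gene, and the retained-intron Slc38a2-202 the rest. Slc3a2 had 86.2 ± 0.156% on protein-coding transcripts, with Slc3a2-201 at 58.3% and 46.2%, Slc3a2-207 at 18.8% and 28.4%, and the retained-intron Slc3a2-209 at 13.7% and 13.9%. Slc7a5-201, protein coding, held 100% of the Slc7a5 TPM in both libraries, although its posterior mean share was 74.8% and 67.2%. The few counts of Slc7a11 lay mostly outside its coding models: Slc7a11-203, a processed transcript of 481 bases, had 3.09 and 0.98 counts, the retained-intron Slc7a11-202 had 2 and 3, Slc7a11-204 had 0 and 1, and the protein-coding Slc7a11-201 had 0 and 1.07. Shares of named transcripts differed between the libraries by a median of 3.12 points and by at most 30.9 points, for Slc7a11-203.

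The rounded counts of each gene in the libraries were then set against each other by a two-sided exact binomial test, with Benjamini-Hochberg adjustment over all 17458 genes whose counts summed to 10 or more. It compares 2 libraries of the same cells and no condition. Of the 8 genes, 4 were called different, beside 25.1% of all genes tested. Among genes whose counts summed to 1000 or more, as those of 6 of the 8 do, 37.4% were called. The median log2 ratio of library 2 over library 1 was -0.09 for the 8 and 0.00055 over all genes tested.

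Slc1a5 was lower in library 2, at 199 CPM against 231, a log2 ratio of -0.21 (adjusted p = 5.76e-08, exact binomial test). Slc38a2 had 129 CPM against 153, a log2 ratio of -0.24 (adjusted p = 6.37e-07, same exact test). Slc3a2 had 56.6 CPM against 67.4, a log2 ratio of -0.25 (adjusted p = 0.00125, same exact test). Slc38a1 went the other way, with 154 CPM in library 2 against 141 in library 1, a log2 ratio of 0.13 (adjusted p = 0.0142, same exact test). Thus 3 of the 4 genes called were higher in library 1, where 13.2% of all genes were called higher, and 1 was higher in library 2, where 11.9% were. For Slc7a6, Slc7a1, Slc7a5 and Slc7a11 the log2 ratios were -0.03, -0.08, -0.09 and 0.21, and the adjusted p values of the exact test ran from 0.589 to 1.

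These calls rest on counting error alone. None of the 8 differed 1.5-fold, beside 8.8% of all genes tested that were called with such a difference. The libraries varied by 13.0% beyond counting error, as edgeR's common dispersion over both. This spread comes from the same libraries that are compared, so a test with it cannot be expected to call differences of their usual size. With that spread edgeR's exactTest called none of the 8, beside 2.1% of all genes, and none of the 8 had an unadjusted p under 0.05, whereas 4 had with the binomial test. Only Slc1a5, 1 of the 8, was called in the smaller set of counts, at a log2 ratio of -0.24 (adjusted p = 0.000712, exact test), beside 10.4% of the genes tested there.

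**Figure D4:**
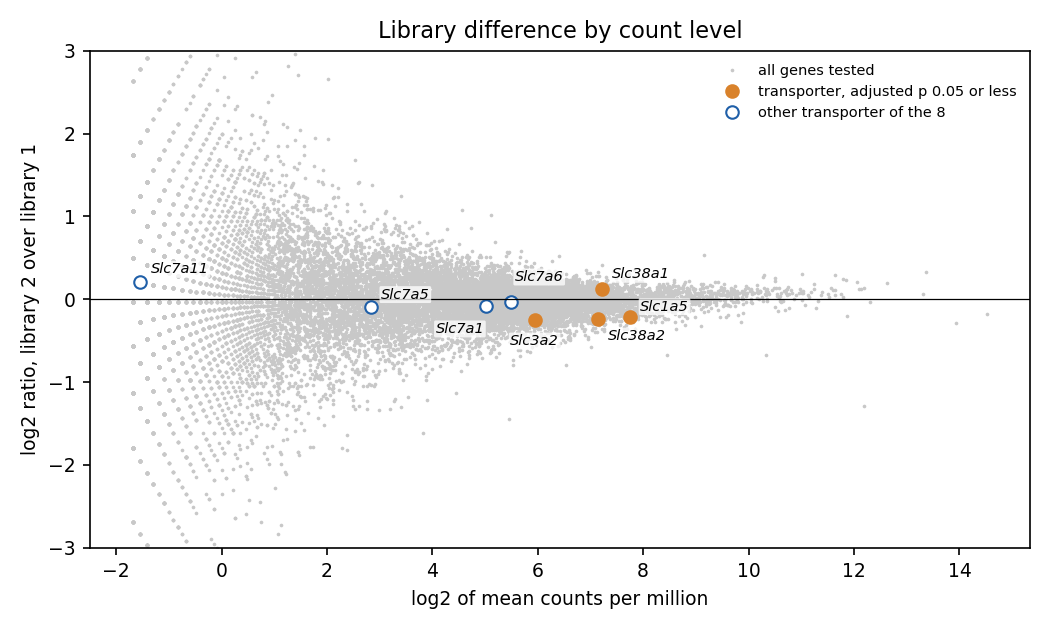
Log2 ratio of library 2 over library 1 against the log2 of mean CPM for all 17458 genes tested (grey), with the 4 transporters called by the exact binomial test as filled orange circles and the other 4 as open blue circles. The vertical axis is limited to -3 to 3, and the 4 called genes lie between -0.25 and 0.13, inside the band of genes with similar counts.

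Counts and TPM did not give the same direction for all 8 genes. By TPM all 8 were higher in library 1, by counts 6 were. Slc38a1 had more counts in library 2 but a TPM that was 1.03 times as high in library 1, and its effective length, the average transcript length over the estimated shares, was 3602 bases in library 1 and 3956 in library 2. Slc7a11 had 2.17 times the TPM in library 1 with fewer counts, on effective lengths of 653 and 1621 bases. For these genes the split among transcripts moved with the TPM.

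The smaller count table, made with the older GENCODE M4 annotation, had 3746426 counts in library 1 and 3680387 in library 2. Slc1a5 had 1527 and 1289 counts there, Slc3a2 749 and 664, Slc38a1 495 and 570, Slc38a2 542 and 477, Slc7a6 296 and 277, Slc7a1 64 and 61 and Slc7a5 23 and 18. Scaled to the total, Slc3a2 was 3.08 times its CPM in the larger table, Slc1a5 1.76 times, Slc7a6 1.72 times, Slc38a2 0.973, Slc38a1 0.969, Slc7a5 0.775 and Slc7a1 0.522 times. Over 10636 genes the median of this ratio was 1.71, with quartiles of 0.969 and 2.47. By counts, Slc3a2 stood under both SNAT genes in the larger table and above both in the smaller one. No exon of another gene overlaps an exon of the 8 on either strand, and at most 4.23% of a gene's windows (Slc38a1) occur in another gene.

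Promoter sequence was at hand for 5 of the 8, in 7 windows of 250 bases before a RefSeq start (build GRCm38.p6), matched by symbol: Slc3a2, Slc38a2, Slc7a1, Slc7a6 and Slc7a11. The motifs searched, on both strands, were TGATGCAA, an amino acid response element read by ATF4 with C/EBP proteins, TGACNNNGC, the antioxidant response element of NRF2, and CACGTG, the E-box of Myc and Max. They occur in 0.791%, 10.2% and 6.02% of the 32851 promoter windows of that length. TGATGCAA was found in the Slc7a11 window alone, with 2 matches, 66 to 59 bases before the start on the strand of the gene and 47 to 40 on the other. The Slc7a11 window is printed, from RefSeq, as chr3:50443614-50443863 on the minus strand, with both matches in capitals, since it alone held TGATGCAA.
Slc7a11: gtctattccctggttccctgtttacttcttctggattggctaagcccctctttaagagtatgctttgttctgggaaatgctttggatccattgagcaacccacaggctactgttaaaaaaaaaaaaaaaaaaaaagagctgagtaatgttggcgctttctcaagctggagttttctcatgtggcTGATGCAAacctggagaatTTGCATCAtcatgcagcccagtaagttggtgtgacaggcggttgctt
TGACNNNGC was found once each before the Slc38a2 start, the first Slc7a1 start and the second Slc7a6 start, and CACGTG in none of the 7 windows. A match describes these letters only, and whether ATF4 acts on Slc7a11 in this sample was not tested.

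Genes that sense amino acids or use them were taken from written lists. Of 37 genes of mTORC1 and its amino acid sensing, 33 were expressed, and the median level was 15.2 TPM. Lamtor5 and Lamtor2, parts of the Ragulator scaffold on the lysosome, were at 147 ± 11.9 and 141 ± 8.05 TPM, and Sec13 of the GATOR2 complex was at 104 ± 2.75 TPM. Mtor, the kinase itself, was at 10.4 and 5.84 TPM, from 540 and 476 counts, and Deptor, an inhibitor, was lowest at 0.185 TPM. The exact binomial test called 14 of the 37, beside 25.1% of all genes tested, with 10 higher in library 1 (all genes 13.2%) and 4 higher in library 2 (all genes 11.9%). Called with at least 1.5-fold, as 8.8% of all genes were, there were Rragb (97 and 64 counts), Akt1s1 (35 and 16.1 counts) and Sesn2, the gene of the leucine sensor sestrin 2 (21 and 52 counts). The other sestrin genes of the list stood far higher than Sesn2, Sesn1 at 104 ± 10.1 TPM and Sesn3 at 20.1 ± 1.68 TPM.

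The response to amino acid shortage runs from the kinase GCN2 over eIF2 alpha to ATF4, which is known to raise Slc7a11, Slc7a5, Slc3a2 and Slc38a2. Of its 19 genes 12 were expressed, and the median level was 2.35 TPM. Eif2s1, the eIF2 alpha gene, was at 138 ± 15.4 TPM, Atf4 at 60.1 ± 0.396 TPM and Ddit3 at 41.3 ± 6.32 TPM, while Atf3 was lowest at 0.045 TPM. The exact test called 6 of the 13 tested, 3 in each direction, against 25.1% over all genes, and Atf4 was not among them, its log2 ratio being 0.02 (adjusted p = 0.895, exact test).

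Among 20 genes that use glutamine, branched-chain amino acids and arginine, 16 were expressed, and the median level was 14.5 TPM. Ass1 and Asl, which make arginine from citrulline, were at 306 ± 3.08 and 75.7 ± 0.926 TPM, above Slc7a1, which imports it. In the smaller set of counts Ass1, with 486 in each library, stood under Asl, with 633 and 645. Both were above Slc7a1 there, with 64 and 61. Nos2, which uses arginine, had 0 counts. Of the 17 tested 6 were called, 3 in each direction, where all genes gave 25.1%. The one past 1.5-fold (all genes 8.8%) was Bcat1, a cytosolic branched-chain aminotransferase, at 93 and 179 counts.

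Of 16 genes for cystine, glutathione and the NRF2 response, 13 were expressed, and the median level was 8.02 TPM. The glutathione peroxidase genes Gpx4 and Gpx1 were at 356 ± 0.792 and 351 ± 9.45 TPM and the thioredoxin gene Txn1 at 95.8 ± 0.417 TPM. Cth, which makes cysteine from cystathionine, had 0 and 1 counts, and the cystine importer gene Slc7a11 had 5.09 and 6.05. Of the 15 tested 2 were called, beside 25.1% of all genes, both higher in library 1 (all genes 13.2%), of which Hmox1 (92 and 57 counts) was past 1.5-fold.

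**Figure D5:**
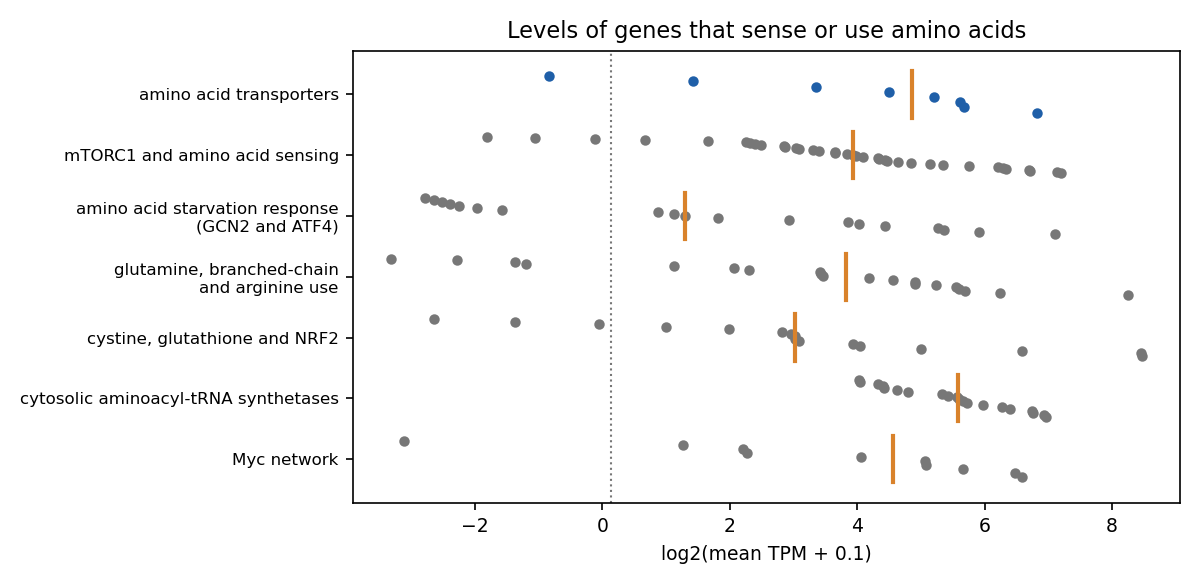
Mean level of each gene as log2(mean TPM + 0.1) in the 8 transporters (blue) and in 6 further lists (grey). The lists are of genes that sense or use amino acids and of the Myc network. The median of each row is shown as an orange bar and 1 TPM as a dotted line. The medians run from 2.35 TPM for the starvation response to 47.9 TPM for the aminoacyl-tRNA synthetases, and that of the transporters is 29.7 TPM.

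In the other transporter lists the exact test called 8 of the 27 genes tested, beside 25.1% of all genes, and their median log2 ratio was -0.06. Past 1.5-fold (all genes 8.8%) were Slc7a8 (10 and 1 counts) and Slc1a3 (24 and 5.79 counts), higher in library 1, and Slc7a2 and Slc15a4 (57 and 90 counts), higher in library 2. None of these was called by edgeR's exactTest with the common dispersion. In the smaller set of counts Slc7a8 had 4 and 1, Slc1a3 10 and 0, Slc7a2 0 and 0 and Slc15a4 19 and 19. Slc6a6 was higher in library 2 by counts, by a log2 ratio of 0.23 (adjusted p = 9.91e-05, exact test), while its TPM was 36.8 and 33.5.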

How the data were processed

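The polyA plus RNA-seq data come from 2 technical libraries of 1 mouse, with 15821875 and 16153671 estimated counts on genes, and form 1 group. Per the readme texts deposited by the authors, the larger gene and transcript tables use mm10 and GENCODE M21; the aligner is not given in the sources used here. Per the file headers the authors gave estimated counts (expected counts, unscaled), TPM with credibility bounds, FPKM (not used), feature lengths and each transcript's percent of the gene's TPM. The smaller table holds whole-number counts on GENCODE M4 deposited by the authors without a header; the sources used here do not give its counting tool or strand setting. The credibility bounds and lengths were treated as deposited signal values. Features with numeric identifiers held 8.78% and 8.43% of the posterior mean TPM beside 0.860% and 0.836% of TPM, and the posterior mean was lower than the TPM for 6 of the 8 genes and higher for Slc7a5 and Slc7a11.

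Expressed means 1 TPM or more in both libraries. Levels were not tested. Libraries were compared with an exact binomial test (SciPy 1.17.1) on rounded expected counts with TMM sizes (edgeR 4.0.16, R 4.3.3), a summed count of 10 or more, Benjamini-Hochberg at 0.05 and a prior count of 0.5 in log2 ratios. On simulated counts with counting error only it recovered 153 of 200 genes changed 1.5-fold (17526 tested), 195 changed 2-fold (17510 tested) and all 200 changed 4-fold (17537 tested). Alternatives were DESeq2 1.42.0 size factors, library totals, other filters, edgeR's exactTest, the smaller table, posterior means and protein-coding transcripts. Ddit3 has 2 identifiers, and the longer gene was used.

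The members and lists were chosen with earlier results of these data known. Named were all 8 members, their transcripts with 10% or more of TPM or counts, the 3 highest and the lowest gene of each list, list genes called with 1.5-fold, the 2 nearest transporters in level, and Atf4, Myc, Mtor and Foxp3; other genes were named after their values were seen. Not every gene under this rule is reported here.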

Additional observations from a re-analysis of the deposited data

How the results depend on the processing

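No paired analysis was possible because both libraries form a single group. The median level of the 8 genes, 29.7 TPM, was 21.3 TPM over protein-coding transcripts alone. It was 27.1 TPM with posterior mean TPM, 29.97 TPM with rescaling over annotated genes and 27.3 and 32.1 TPM with either library alone. The count of 4 genes called different between the libraries was 0 with edgeR's exactTest at the common dispersion, 0 when 1.5-fold was also required and 1 in the smaller count table, and it was 4 with DESeq2 size factors, library totals, no count filter and a summed count of 50 or more. Over all genes tested these settings called 367, 1537 and 1163 beside 4387. Slc3a2 over its light chains, 1.61, was 1.498 with posterior mean TPM, 2.16 over protein-coding transcripts and 1.94 without Slc7a10, a setting added after its values were seen. The count of 7 expressed genes was 6 at 5 TPM and 7 at 0.5 TPM. No log2 ratio between the libraries changed sign under the alternatives run, all of which used whole-gene counts. By TPM, Slc38a1 and Slc7a11 were higher in library 1, against their counts. Over protein-coding transcripts alone Slc1a5 was higher in library 2, at 39.6 TPM against 35.0, unlike the whole gene. Depth limits Slc7a11, whose counts of 5 and 6 have intervals that reach below the level that a count of 0 allows.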

Other observations

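All 20 cytosolic aminoacyl-tRNA synthetase genes, whose enzymes load tRNAs with the amino acids that the transporters bring in, reached 5 TPM in both libraries, and their median level was 47.9 TPM. Kars, for lysine, was at 124 ± 1.32 TPM (SD, n = 2), Sars, for serine, at 122 ± 0.0424 TPM and Qars, for glutamine, at 109 ± 15.2 TPM, and Mars, for methionine, was lowest at 16.3 ± 1.58 TPM. The lowest of these 20 was above Slc7a1, Slc7a5 and Slc7a11. The exact binomial test called 9 of the 20 different, beside 25.1% of all genes tested and 37.4% of those whose counts summed to 1000 or more, of which 6 had more in library 1 and 3 in library 2, and none differed 1.5-fold.

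Of 10 genes of the Myc network, which is known to raise Slc1a5, Slc7a5 and Slc38a2 in stimulated T cells, 9 were expressed, and the median level was 24.96 TPM. Mxd4, a partner of Max that opposes Myc, was at 96.3 ± 1.95 TPM, Myc at 89.0 ± 6.07 TPM and Mlx at 50.8 ± 0.205 TPM, and Mycn had 0 and 1 counts. Slc7a5, at 2.57 TPM, was low beside Myc in both libraries. Slc1a5 was above Myc at its whole-gene level of 114 TPM, but had 37.3 TPM over protein-coding transcripts alone. Whether Myc acts on these genes in this sample was not tested. The exact test called 3 of the 9 tested, against 25.1% of all genes, Myc and Max higher in library 1 and Mlx higher in library 2.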
